A study of Homo sapiens with 4 samples.

Results

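Knockdown of TET1 in the human lung cancer line H1299 was compared with the same line given vehicle, on 1 Illumina bead array each. Of 47321 probes, the 17747 with a detection p under 0.01 on at least 1 of the 2 arrays are described here. The detection p is the scanner software's measure of how often negative control beads read as bright as the probe. Both arrays detected 13553 of these probes, the control array alone 3330 and the knockdown array alone 864. They carried 13432 gene symbols, and 2994 genes had at least 2 such probes, of which 2512 had 2 and 482 had 3 or more. A gene with several probes is measured several times on the same array, so agreement between its probes was used to choose the genes that are described in most detail.

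The TET1 enzyme oxidises methylated cytosine in DNA to 5-hydroxymethylcytosine and further products, a step on the way to removal of the methyl mark. Its CXXC domain binds CG-rich DNA, and the protein sits at many CG-rich promoters, where it also takes part in gene silencing together with chromatin complexes. TET2 and TET3 are its catalytic relatives, and the DNMT enzymes write the mark that the TET enzymes oxidise.

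H1299 came from a nodal metastasis of a non-small cell lung carcinoma. The H1299 control was the parent line labelled vehicle, and the knockdown was H1299 labelled siRNA TET1 knockdown. The other 2 arrays of the study held the lung adenocarcinoma line A549, as parent cells labelled vehicle and as siRNA TET1 knockdown. The labels give neither the siRNA sequence nor the time after transfection, and they name no non-targeting siRNA, so the knockdown and the delivery of an siRNA cannot be told apart. With 1 array per group no difference has a measured error, and every count below describes these arrays. The number of arrays limits the precision.

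The line labels were checked against genes known to separate the lines. MTAP, which is deleted in A549, had a raw signal of 1069.7 on the H1299 control array and 1004.8 on the H1299 knockdown array, against 152.4 and 189.3 on the A549 control and knockdown arrays. Dim as it was, the signal on the A549 knockdown array passed the detection rule (detection p 0.0026), while that on the A549 control array did not (0.112). AKR1B10, an aldo-keto reductase abundant in A549, read 412.9 and 271.3 on the H1299 arrays and 22600.8 and 35433.7 on the A549 arrays. The mesenchymal filament gene VIM was among the brightest, at 24469.1 and 12571 on one probe of the H1299 arrays and at 23669.2 and 26930.2 on the other. None of 8 lung alveolar and airway markers, 4 fibroblast markers or 3 endothelial markers was detected in H1299, and of 5 leukocyte markers CD14 alone was, at 172.3 and 222.8. The labelled source of both lines is bronchial epithelium, whose airway markers were thus absent.

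In normalized log2 signal over the 17747 probes, the 2 A549 arrays correlated best, at a Pearson r of 0.936. The H1299 arrays were not each other's nearest. The H1299 control correlated with the A549 knockdown at an r of 0.883 and with the H1299 knockdown at 0.862. The H1299 knockdown correlated with the A549 control at 0.900. The H1299 control and the A549 knockdown also detected more probes, 16883 and 17107, than the H1299 knockdown and the A549 control, 14417 and 13980. These correlations are across probes of the same arrays and carry no test. With 1 array per group neither H1299 array can be left out, so the A549 change of the same probes is given for the leading genes. The counts of each list are repeated without the genes whose A549 change ran the other way by a log2 change of at least 0.5, called mirrored here. A gene that A549 did not detect could not be called mirrored and stays in every such count. So does a gene whose A549 change was set to 0 because a detection bound left no direction. The genes above check which line an array held. The treatment labels are checked by the dim TET1 signal alone, which in A549 read 222.1 without knockdown and 164.5, not detected, with it, so every knockdown minus control value rests on those labels.

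The targeted gene read lower in the knockdown, near the limit of detection. Probe ILMN_3247163 of TET1 read 255.9 in the control (raw signal, detection p 0.0013) and 186.8 in the knockdown (detection p 0.0169), and after normalization 6.83 and 5.90 on the log2 scale. The knockdown array did not detect it, so its value is held at the lowest normalized signal of any detected probe on that array. This gives a level at least 1.74-fold lower. The other TET1 probe, ILMN_1741056, listed under the older symbol CXXC6, read 182 in the control and 137.5 in the knockdown, and its control value lies too close to the limit to give a fold. On the authors' deposited scale the difference on the first of these probes was -0.10. Neither H1299 array detected TET2, TET3 or DNMT3A, which methylates DNA de novo.

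Other genes that write, read or remove DNA methylation were detected more clearly. DNMT1, the maintenance methyltransferase, read 13301.2 in the control and 18083 in the knockdown, a normalized change of 0.22. UHRF1, which guides DNMT1 to newly replicated DNA, read 6710.2 and 1608.8 on the 1 detected of its 2 probes, which was 5.10-fold lower. The knockdown array detected neither probe of MBD1, which binds methylated CG, and the bounds put them 4.56-fold and 4.49-fold lower or more. MBD4, a glycosylase that repairs mismatches at CG sites, was 2.17-fold higher on its probe. The 3 probes of DNMT3B, a de novo methyltransferase, did not point the same way, with changes of 0.93, -0.26 and -0.48. In A549 the change was 0.21 on the UHRF1 probe, at least 0.68 and 0.57 on the MBD1 probes and -0.06 on the MBD4 probe.

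A probe counted as higher or lower at 2-fold, a log2 change of 1. Of the 17747 probes, 2723 (15.3%) were higher in the knockdown and 2574 (14.5%) were lower, with a median change of 0.16 and a standard deviation of 1.10 over probes. Either way, 5297 probes (29.8%) were called. Changes ran from -7.59 to 6.92, with a 5th percentile of -2.06 and a 95th of 1.48. Among the 13553 probes detected on both arrays the spread was largest at moderate signal, with a standard deviation of 1.23 for 4679 probes whose mean log2 signal lay between 7 and 9, and smallest, 0.62, among 658 probes at 13 or above. In the brightest of these ranges 1.37% of probes were higher and 6.99% were lower. The split of the calls depended on the processing. It was 51.4% higher to 48.6% lower here, 41.2% to 58.8% with arrays centred on the median of probes detected on both, and 30% to 70% on the deposited values. A difference of 1 on the deposited scale was read as 2-fold, although its transformation is not given. Probes at the edge of the detection rule were few, with 146 at a detection p of 0.00909 just inside it and 44 at 0.01039 just outside.

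**Figure D1:**
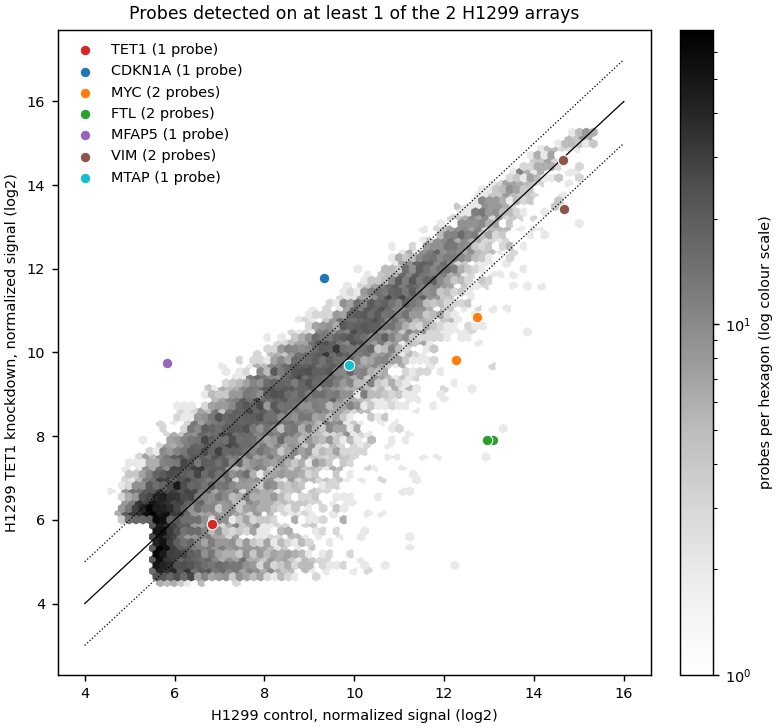
Normalized log2 signal of each of the 17747 probes on the H1299 control array (horizontal) and the H1299 knockdown array (vertical), with grey hexagons shaded by the number of probes, the solid line marking equal signal and dotted lines marking 2-fold. The FTL and MYC probes lie below the lower dotted line, CDKN1A and MFAP5 above the upper one, and MTAP near the line of equal signal.

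Probes of the same gene often disagreed. In the 2994 genes with several probes, all probes were higher in 651 (21.7%), all were lower in 746 (24.9%), and 1597 (53.3%) had probes that did not share a direction. Over 1704 genes with 2 probes measured on both arrays, the changes on the 2 probes correlated at a Pearson r of 0.30 (Spearman rho 0.32), across genes that share the arrays. The standard deviation of the change between probes of the same gene was 1.0 over 1909 genes, from probes measured on both arrays. The 1.10 over all probes also includes probes with a side held at a detection bound, so the sets are unlike. A single-probe change of 2-fold in H1299 is therefore of the size by which probes of a gene differ among themselves.

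The same probes in A549 ran mostly the other way. Over 15387 probes with a change in each line, the H1299 and A549 changes correlated at a Pearson r of -0.75 (Spearman rho -0.70). Of 2411 probes at least 2-fold higher in H1299 that had an A549 change, 579 were at least 2-fold lower in A549 and 8 at least 2-fold higher. Of 2472 probes lower in H1299, A549 had 1152 at least 2-fold higher and 9 at least 2-fold lower. The gap between the 2 probes of a gene was mirrored too, at an r of -0.77 over 1409 genes measured on all 4 arrays. The part of this opposition in the gene changes below was not tested.

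**Figure D2:**
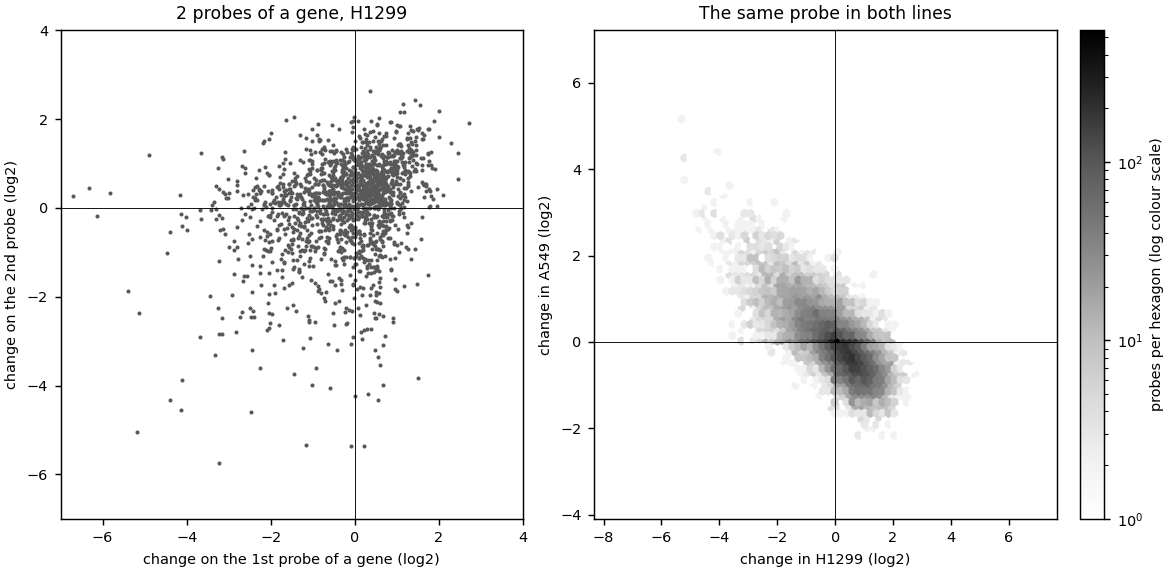
Left, the log2 change (knockdown minus control) in H1299 on the 2 probes of each of 1704 genes, in which many points lie off the diagonal (r 0.30). Right, the change of the same probe in H1299 (horizontal) and A549 (vertical) for 15387 probes, with hexagons shaded by the number of probes and the cloud running from upper left to lower right (r -0.75).

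In 85 genes (2.84% of the 2994) every detected probe was at least 2-fold higher in the H1299 knockdown. SAA1, an acute-phase apolipoprotein induced by inflammatory cytokines, headed those whose direction also held with median centring and on the deposited values. Its probes read 288.2 in the control and 1031 in the knockdown on ILMN_2304512, and 145.2 and 304.3 on ILMN_1808732, where the control was not detected. This made SAA1 6.03-fold higher on the former, with a bound of at least 4.03-fold on the latter. SAA1 was not detected in A549. IFI27L2, a relative of the interferon-induced gene IFI27, read 712.6 and 4328.8 on a probe 6.59-fold higher, and 1083.6 and 4191.2 on a probe 3.75-fold higher. The transglutaminase TGM2, which crosslinks proteins, went from 673.1 to 1733.7 and from 294 to 888.6, or 2.77-fold and 4.93-fold higher.

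The other genes that led this group were spread over several functions. The myosin light chain gene MYL5 was 3.99-fold and 4.56-fold higher on its probes, and the zinc finger gene ZNF226 3.70-fold and 3.87-fold. NR5A2, a nuclear receptor, was 3.40-fold and 3.45-fold higher, from raw signals of 172.8 and 226.1 to 276.1 and 422.2. ATG4A, a protease that processes ATG8 proteins for autophagosome formation, was 3.35-fold and 3.41-fold higher. SAMD3 read 184.6 and 195.3 in the control and 289.5 and 315.8 in the knockdown. PDS5B, a regulator of cohesin, was 3.0-fold and 3.99-fold higher, the calcium-binding protein gene CALB2 2.95-fold and 3.08-fold, and the GTPase-activating protein gene ARAP3 2.93-fold and 3.03-fold. CLK3, a kinase of SR splicing factors, was 2.92-fold and 4.98-fold higher, the matrix protein gene FBLN2 3.47-fold and 2.90-fold, and ABCB9, a lysosomal peptide transporter, 2.84-fold and 3.38-fold. The symbol FTHL11, a ferritin heavy chain pseudogene now named FTH1P11, was 3.21-fold and 3.03-fold higher, but its probes may read FTH1 or other near-identical copies.

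In A549 the probes of 53 of these 85 genes were all lower, those of 3 were all higher, 21 genes were mixed and 8 were not detected. In 6 genes every A549 probe was at least 2-fold lower. FBLN2 was 1 of them, with A549 changes of -1.54 and -2.05. ZNF226 changed by 0.13 and 0.01 in A549, and FTHL11 by 1.08 and 0.60, so these genes were not among the mirrored ones.

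In 178 genes (5.95%) every detected probe was at least 2-fold lower in the knockdown. FTL, the ferritin light chain that stores iron, read 8365.2 and 7669.8 on its probes in the control and 356.3 and 354.2 in the knockdown, 36.2-fold and 33.0-fold lower. In A549 the same probes changed by 6.07 and 5.95 log2 units. RPLP0, which forms the stalk of the large ribosomal subunit, read 2030.4 and 2391.3 in the control and was not detected in the knockdown, lower by at least 30.4-fold on one and 36.4-fold on the other, with A549 changes of 2.04 and 3.21. CDV3 was 20.2-fold and 21-fold lower, from 3209.8 and 2666.7 to 274.1 and 245. MRPS27, of the small mitochondrial ribosomal subunit, was 23.3-fold and 17.5-fold lower.

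Further down the same ranking, NCKAP1, a part of the WAVE complex that drives actin branching, was 19.4-fold lower on a probe and at least 13.1-fold lower on another. The arginine methyltransferase PRMT1 was at least 11.3-fold and 23.0-fold lower, and TJP1, the tight junction scaffold ZO-1, at least 11.1-fold and 12.1-fold. For TJP1 the A549 changes were 0.33 and 0.43, so it was not in the mirrored set. EEF1D, an elongation factor subunit, was 12.8-fold and 7.46-fold lower, the glycolytic mutase PGAM1 7.23-fold and at least 61.8-fold, and C15orf23 (now KNSTRN, a spindle protein) 8.97-fold and 7.17-fold. The remaining 5 were symbols that name only a locus, LOC440589, LOC643668, LOC728658, LOC645693 and LOC100131609, lower by between 9.40-fold and 53.7-fold over their 11 probes, some of these values being bounds.

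Of the 178 lower genes, the A549 probes were all higher in 147, all lower in 8, mixed in 20 and not detected in 3, and in 63 genes every A549 probe was at least 2-fold higher. Leaving out every gene with an A549 change of at least 0.5 log2 units the other way left 42 higher genes (2.08% of 2021 that remained) and 47 lower genes (2.33%).

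**Figure D3:**
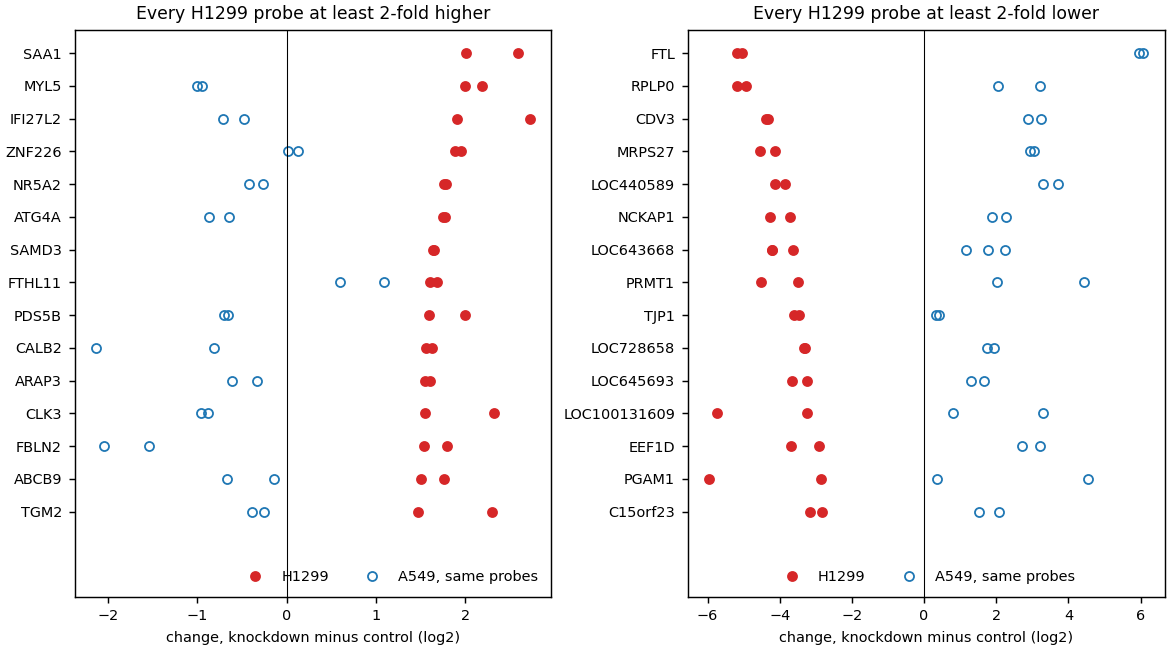
Log2 change of each detected probe (knockdown minus control) for the 15 leading genes in which every H1299 probe was at least 2-fold higher (left) or lower (right), as filled points, with the same probes in A549 as open points. Undetected sides are held at the array's detection limit. Among the lower genes all A549 points lie above 0, and among the higher genes the A549 points of ZNF226 and FTHL11 lie above 0.

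Genes with 1 detected probe gave the largest increases and rest on that probe alone. LOC100132564 read 407.3 in the control and 32648.4 in the knockdown, 121-fold higher, and was also 6.71 log2 units higher in A549. MFAP5, a glycoprotein of elastic microfibrils, read 185.2 and 1042.3, or 15.1-fold higher, and its A549 change was -1.48. The channel gene PANX2 was 12.2-fold higher (176.5 and 766.9), the dipeptidase DPEP3 11.8-fold (217.9 and 1167.1), and NTSR1, the neurotensin receptor, 11.1-fold (174.5 and 684.8). RN5S9, a 5S ribosomal RNA gene with many near-identical copies, was 17.5-fold higher. Among the single-probe decreases, MORF4L2, a chromatin protein gene, was at least 85.6-fold lower, the elongation factor EEF1G by 84.0-fold or more and the vesicle transport gene TMED2 at least 49.3-fold. LOC100133372, LOC388654 and LOC387867 were 123-fold, 59.6-fold and 49.4-fold lower. All 6 of these single-probe decreases had an A549 change above 0, from 2.68 to 5.89.

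In 79 genes (2.64% of the 2994) a probe at least 2-fold higher stood beside a probe at least 2-fold lower. HNRNPK, an RNA-binding protein gene, held the widest gap. Its probe ILMN_3179371 read 4985.5 in the control and 146.2 in the knockdown, at least 78.3-fold lower, while ILMN_3260017 read 165.5 and 217, at least 2.04-fold higher. Under the older symbol HNRPK, 2 further probes of this gene were both lower, with changes or bounds of -2.03 and -1.76. NAP1L1, a histone chaperone gene, had probes 27.3-fold lower, 2.74-fold lower and 2.03-fold higher. SS18, TSR1, PGAM4, RHOXF2B, LOC388707 and LOC345645 split in the same manner. PGAM4 is nearly identical to PGAM1, and its 4 probes may read either. For ACTB and GAPDH, often used as reference genes and chosen after their values were seen, the H1299 changes were -0.82, -1.50 and at most -7.59 on the ACTB probes, and 0.38, -1.25 and -1.68 on the GAPDH probes.

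Genes were then read by function in 26 lists. A gene was called higher or lower if the median change of its detected probes was at least 2-fold and no probe had the opposite sign or no direction. By this rule 2067 of 13432 genes (15.4%) were called higher and 1544 (11.5%) lower, and the median gene change was 0.19. Without the genes mirrored in A549, 867 of 8734 (9.93%) were called higher and 491 (5.62%) lower. The H1299 counts of each list below are to be read beside these shares. No share called or median over all genes is given for A549. The A549 counts and medians of the lists therefore have no background to be read beside. The lists with the highest medians held clustered histones, interferon response genes and lysosomal genes, and those with the lowest held DNA replication, chaperone and cholesterol synthesis genes. Of the 14 detected symbols of the DNA methylation machinery, 1 was called higher and 5 lower, and without mirrored genes 1 of 8 was called higher and 1 lower.

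**Figure D4:**
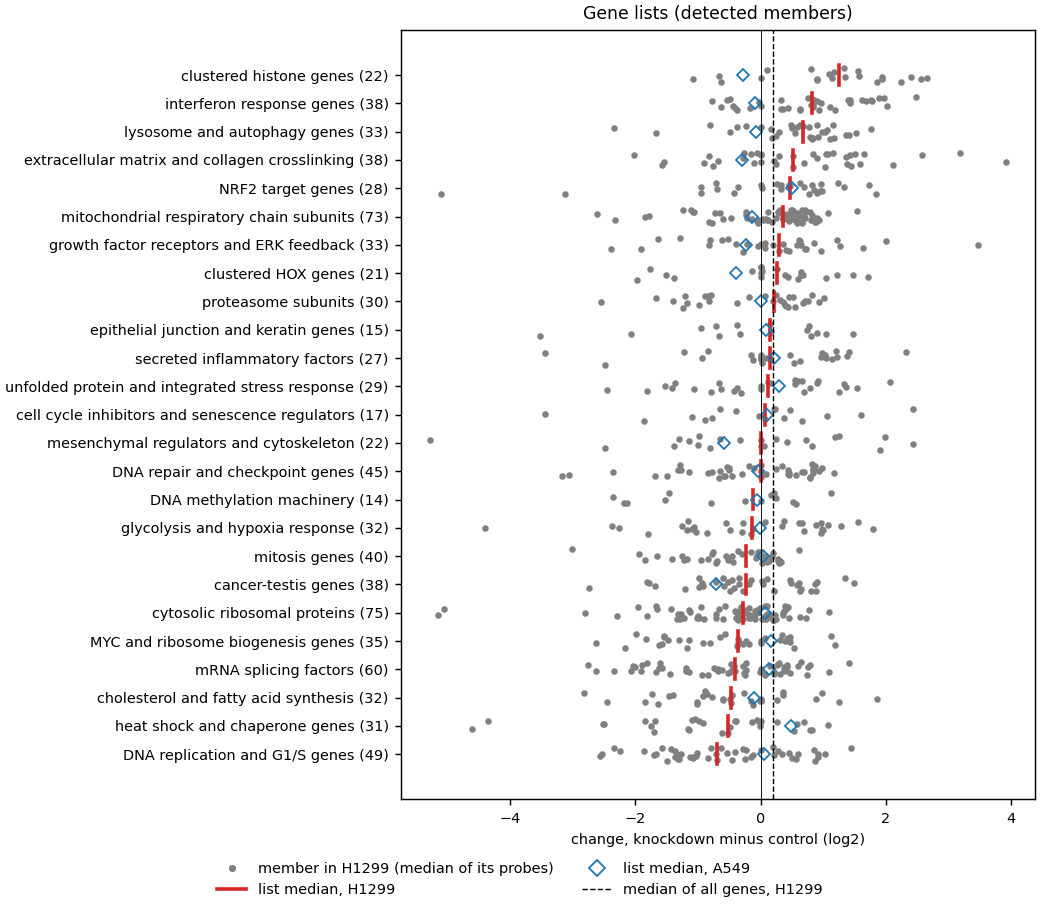
Log2 change of each detected member (grey points, median of its probes) of 25 gene lists in H1299, with the list median in red, the A549 list median as a blue diamond and the median of all genes in H1299 as a dashed line. The number of detected members stands beside each name, and the H1299 medians run from 1.25 for clustered histone genes to -0.70 for DNA replication genes.

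Most interferon response genes read higher in the knockdown. Of 38 detected members 28 had a median change above 0, and 13 were called higher and 0 lower, against 15.4% and 11.5% of all genes. The list median was 0.82, against 0.19 over all genes. IRF1, a transcription factor of the interferon response, read 226 in the control and 637.8 in the knockdown, 5.61-fold higher. ISG20, an exonuclease with antiviral activity, read 234.1 and 508.4, or 4.05-fold higher, and IFI44 193 and 329.9, or 3.44-fold. The tetratricopeptide antiviral genes IFIT1 (215.9 and 330.6) and IFIT3 (170.5, not detected, and 259.6) were higher by 2.68-fold and, as a bound, 3.07-fold. IFIH1, which encodes the RNA sensor MDA5, read 627.8 and 1531.9, 2.69-fold higher, and SAMD9, an antiviral restriction factor, 314.8 and 768.3, or 3.72-fold. Both probes of PARP9, a partner of the ubiquitin ligase DTX3L, were higher, 2.95-fold and 1.58-fold. IFIT1, IFIT3, IFIH1, IFI44 and SAMD9 were chosen after their values were seen. Most of these signals are dim, and 11 of the 13 called genes rest on 1 probe. Of 11 members with several probes, 3 were higher on every probe, 2 lower on every probe and 6 did not share a direction. Over all genes with several probes these shares were 21.7%, 24.9% and 53.3%, so agreement between probes adds little for this list.

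In A549 the interferon list median was -0.08, with 2 members called higher and 4 lower. IRF1 changed by -1.20 and SAMD9 by -1.03 there. Without the mirrored genes, 24 interferon genes were left, of which 8 were called higher and 0 lower. IFIT3, IFIH1 and IFI44 are among these 8, but A549 did not detect them.

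The promoters of these genes were searched for the interferon-stimulated response element, read as GAAA and GAAA in the same direction with any 2 bases between them, on both strands, in the 300 bases from 250 before to 50 after the RefSeq start (GRCh38.p14). It was found in 17 of 31 interferon promoters (54.8%) and 7 of the 12 among them called higher, in 2.65% of 8806 promoters of detected genes and in 3.65% of all 27305 promoters. Among the 85 genes with every probe 2-fold higher, 58 had a promoter in the table and 1.72% of them held it. Of the 117 promoters of genes with every probe 2-fold lower, 5.13% held it, a larger share. A match is a string of letters and was not tested as a site. The sequences of 4 genes are printed to show how the element lies in members that read higher in the knockdown, 5′ to 3′ on the gene's strand, in lower case with the matches in capitals.
ISG20 (chr15:88638766-88639065, plus strand): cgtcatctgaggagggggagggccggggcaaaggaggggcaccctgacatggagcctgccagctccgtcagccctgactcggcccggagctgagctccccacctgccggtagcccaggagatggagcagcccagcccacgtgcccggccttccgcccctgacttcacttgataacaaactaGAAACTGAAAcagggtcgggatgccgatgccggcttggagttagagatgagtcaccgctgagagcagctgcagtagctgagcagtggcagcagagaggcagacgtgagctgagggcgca
IFIT1 (chr10:89392373-89392672, plus strand): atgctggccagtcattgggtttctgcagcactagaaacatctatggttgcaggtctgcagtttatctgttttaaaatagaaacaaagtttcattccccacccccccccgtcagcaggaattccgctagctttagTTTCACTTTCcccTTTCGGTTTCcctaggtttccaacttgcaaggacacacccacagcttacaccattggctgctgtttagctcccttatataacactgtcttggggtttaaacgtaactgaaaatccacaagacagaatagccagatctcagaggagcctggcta
IFIT3 (chr10:89327747-89328046, plus strand): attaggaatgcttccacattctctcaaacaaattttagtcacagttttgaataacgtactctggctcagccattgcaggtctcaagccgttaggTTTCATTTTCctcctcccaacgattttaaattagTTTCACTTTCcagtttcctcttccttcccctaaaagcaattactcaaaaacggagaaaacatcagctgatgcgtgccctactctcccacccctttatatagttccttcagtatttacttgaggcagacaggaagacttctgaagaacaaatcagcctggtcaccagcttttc
IFIH1 (chr2:162318635-162318934, minus strand): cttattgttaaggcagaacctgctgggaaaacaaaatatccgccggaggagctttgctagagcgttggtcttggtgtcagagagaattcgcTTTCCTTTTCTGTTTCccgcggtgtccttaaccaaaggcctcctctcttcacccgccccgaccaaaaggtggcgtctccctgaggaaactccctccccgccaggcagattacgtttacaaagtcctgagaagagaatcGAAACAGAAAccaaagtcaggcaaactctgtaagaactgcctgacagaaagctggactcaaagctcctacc
In ISG20 the match began at base 182 of the window, and IFIT1 had matches at bases 135 and 148, 13 bases apart from start to start. IFIT3 had matches at bases 95 and 129. In IFIH1 the matches at 92 and 98 overlap and a further match began at 230.

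Clustered histone genes, whose transcripts mostly end in a stem-loop and lack a poly(A) tail, had the highest list median, 1.25. Of 22 detected members 13 were called higher and 1 lower. HIST1H2BD (now H2BC5) read 632.8 in the control and 3350.1 in the knockdown on a probe 5.82-fold higher, and 137.2, not detected, and 235.4 on a probe at least 2.51-fold higher. HIST1H2BG was 6.36-fold higher (185.1 and 481.2) and HIST1H2BE 5.94-fold (207.4 and 566). Genes of this family are close in sequence, so a probe may read several of them. The A549 median was -0.27, and without mirrored genes 10 of 15 were called higher and 0 lower. The promoter windows of 17 histone genes held CCAAT in 82.4%, against 37.4% of detected genes.

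Genes of the extracellular matrix and its crosslinking were called higher in 15 of 38 detected members and lower in 3, with a list median of 0.52. LOX, which crosslinks collagen and elastin, read 209.6 in the control and 854.9 in the knockdown, 9.16-fold higher, and was not detected in A549. Both probes of COL13A1, a transmembrane collagen, were not detected in the control, and the bounds put them 2.29-fold and 2.95-fold higher or more. COL12A1, a fibril-associated collagen, was at least 4.07-fold lower (423.5 and 160.9), and the laminin chain LAMB3 was 3.0-fold lower. In A549 the median was -0.30 with 1 member called higher and 6 lower, and without mirrored genes 7 of 26 were called higher and 1 lower.

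Contractile and mesenchymal genes gave no common direction, with 5 of 22 called higher, 3 lower and a median of 0.00. MYL9, the regulatory myosin light chain of smooth muscle, read 183.6 and 416.9, or 5.42-fold higher, and ACTA2, smooth muscle actin, 668.4 and 2478.4, or 3.98-fold. Both probes of CAV1, the scaffold of caveolae, were lower, 2.53-fold (8997.6 and 4364.7) and 2.71-fold (605.4 and 281.2), with A549 changes of 0.02 and 0.09. The integrin ITGAV was 5.6-fold lower and ZEB2, a repressor of epithelial genes, 2.21-fold lower. The A549 changes were at most -0.82 for MYL9, -1.18 for ACTA2, 0.62 for ITGAV and at most -0.76 for ZEB2, and without mirrored genes 1 of 13 was called higher and 2 lower. Of 15 epithelial genes 2 were called higher and 2 lower, and without mirrored genes 1 of 9 higher and 2 lower. SPINT2, a protease inhibitor, was 2.77-fold higher, and the desmosomal gene PKP2 was 4.22-fold lower.

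Most lysosome and autophagy genes read higher. Of 33 detected members 26 had a median change above 0, and 8 were called higher (24.2%) and 2 lower (6.06%), against 15.4% and 11.5% of all genes. The list median was 0.68, against 0.19 over all genes. ULK1, the kinase that starts autophagy, read 986.4 and 807.8 in the control and 2563.1 and 2237 in the knockdown, 2.53-fold and 2.82-fold higher. The probes of PSAP, precursor of the saposins that activate lysosomal lipid hydrolases, read 4966.8 and 4962.1 against 12684.5 and 12484.3, or 2.18-fold and 2.15-fold higher. GLB1, lysosomal beta-galactosidase, was 1.96-fold and 2.23-fold higher on its probes. SQSTM1, the autophagy receptor p62, read 10630 and 34382.9, 2.88-fold higher. In the opposite direction, the protective protein CTSA was 5.07-fold lower and BECN1, of the lipid kinase complex of autophagy, 3.20-fold lower. Of 12 members with several probes, 6 were higher on every probe, 0 lower on every probe and 6 did not share a direction. The A549 median was -0.08, and without mirrored genes 6 of 22 were called higher and 0 lower, against 9.93% and 5.62% of all such genes. CACGTG stood in 32.0% of 25 lysosome and autophagy promoters, against 11% of detected genes, but in 0 of the 7 called higher that had a window and in 1 of the 2 called lower.

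Most DNA replication and G1/S genes read lower in the knockdown, and the list had the lowest list median, -0.70. Of 49 detected symbols 34 had a median change below 0, and 15 were called lower and 2 higher, against 11.5% and 15.4% of all genes. Of 16 with several probes 7 were lower on every probe, 0 were higher on every probe and 9 did not share a direction. MCM3, a subunit of the replicative helicase, read 2885 in the control and 296 in the knockdown on a probe 16-fold lower, but 9703.3 and 8034.1 on its other probe, 1.42-fold lower. MCM5 was 5.78-fold lower (1479.7 and 349.5) and the ligase LIG1 5.95-fold (550.2 and 191.8). RFC2, a subunit of the clamp loader, was 1.88-fold and at least 5.44-fold lower on its probes, and CDC25A, the phosphatase that activates cyclin-dependent kinases at S phase entry, 1.87-fold and at least 2.56-fold. CCND3, a D-type cyclin, was 2.72-fold higher (1913.3 and 5944.6). Of the E-type cyclins, chosen after their values were seen, CCNE2 was 5.09-fold lower, while CCNE1 had probes 3.10-fold lower, at least 2.48-fold lower and 3.94-fold higher.

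The A549 replication median was 0.05, with 7 members called higher and 1 lower. LIG1, MCM5 and the dimmer MCM3 probe changed there by 2.74, 2.18 and 2.5, and the brighter MCM3 probe by -0.06. Without mirrored genes 9 of 33 were called lower, against 5.62% of all such genes, and 1 higher.

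An E2F element written as TTTNNCGC was found on either strand in 20 of 39 replication promoters (51.3%), against 11% of detected genes and 6.90% of all promoters, and in 5 of the 11 members called lower that had a window. It was found in 8.55% of the 117 promoters of genes with every probe 2-fold lower. Of the 58 promoters of genes with every probe 2-fold higher, 8.62% held it. The windows of CDC25A and MCM3 are printed as examples from the replication list with every probe lower, in lower case with matches in capitals.
CDC25A (chr3:48188368-48188667, minus strand): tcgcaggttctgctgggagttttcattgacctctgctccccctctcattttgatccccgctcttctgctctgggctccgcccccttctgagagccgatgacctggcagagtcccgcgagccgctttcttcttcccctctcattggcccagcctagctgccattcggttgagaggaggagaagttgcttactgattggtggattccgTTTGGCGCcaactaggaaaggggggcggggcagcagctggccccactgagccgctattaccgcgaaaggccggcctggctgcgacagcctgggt
MCM3 (chr6:52284693-52284992, minus strand): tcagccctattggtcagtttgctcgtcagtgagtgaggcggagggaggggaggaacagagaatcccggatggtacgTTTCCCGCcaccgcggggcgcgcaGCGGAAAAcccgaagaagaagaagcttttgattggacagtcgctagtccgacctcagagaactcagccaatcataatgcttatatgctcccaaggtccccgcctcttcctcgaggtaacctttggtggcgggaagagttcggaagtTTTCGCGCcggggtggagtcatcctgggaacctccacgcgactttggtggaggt
CDC25A had a match at base 207 of its window, and MCM3 had 3, at bases 77, 101 and 247.

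Cell cycle inhibitors went both ways. CDKN1A, the inhibitor p21, read 788.3 in the control and 4103.6 in the knockdown on the 1 detected of its 2 probes, 5.43-fold higher, with an A549 change of -0.47. CDKN2D, an inhibitor of CDK4 and CDK6, was 3.03-fold higher (309.1 and 621.6), and RB1, which restrains E2F, was at least 3.65-fold lower (394.4 and 160.7). For CDKN2A, which encodes p16 and ARF, a probe read 501 in the control and was not detected in the knockdown, while another read 820.7 and 1233.6, so its direction was not settled. Of 17 genes in this list 3 were called higher and 3 lower, and without mirrored genes 2 of 14 higher and 2 lower.

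Among other genes that the naming rule took, both probes of TNFRSF10B, the death receptor DR5, were higher, 4.50-fold (201.1 and 425.7) and 2.10-fold (1524.3 and 3541.6). GDF15, a stress cytokine, read 149.1, not detected, and 223.2, at least 2.21-fold higher, and was 2.27 log2 units higher in A549 as well. AEN, an apoptosis-enhancing nuclease, was 2.10-fold lower, and C12orf5 (now TIGAR), a fructose bisphosphatase, 2.38-fold lower. The probes of ZMAT3, a zinc finger gene, were at least 7.08-fold lower and, on the log2 scale, at -0.50. In A549 the TNFRSF10B probes changed by -0.82 and -0.10, AEN by 0.25, C12orf5 by 0.22 and the ZMAT3 probes by at least 0.61 and by 0.01.

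Among 40 mitosis genes 6 were called lower and 0 higher, with a median of -0.23. The share called lower, 15%, was near the 11.5% of all genes, and the share called higher was 0% against 15.4%. AURKB, a kinase of chromosome segregation, was 8.07-fold lower (2979.1 and 492.4) and TPX2, a spindle assembly factor, 3.87-fold (6023.9 and 1899), and their A549 changes were 3.21 and 1.33. Both probes of KIF23, a kinesin of cytokinesis, were lower, at least 2.20-fold and 2.61-fold, as were those of the mitotic transcription factor FOXM1, 1.69-fold and 2.22-fold. AURKA, which sits at spindle poles, was 1.57-fold and 1.69-fold lower. Without mirrored genes 3 of 34 were called lower and 0 higher.

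MYC read lower on both of its probes, 4741.7 and 6635.7 in the control against 1086.7 and 2189.8 in the knockdown, or 5.41-fold and 3.72-fold. The A549 changes of these probes were 0.76 and 0.56. In the list of MYC and ribosome biogenesis genes, 12 of 35 symbols were called lower and 2 higher, with a median of -0.37. The nucleolar GTPase GNL3 was 2.08-fold and 7.61-fold lower on its probes, and nucleolin (NCL) 1.62-fold and 5.46-fold. CIRH1A (now UTP4) was 6.19-fold lower, and UTP20, also of the small subunit processome, 2.17-fold higher. The list's A549 median was 0.17, and without mirrored genes 1 of 19 was called lower and 0 higher. CACGTG, the E-box that MYC and MAX bind, stood in 33.3% of 27 promoters of this list, against 11% of detected genes, and in 3 of the 9 members called lower that had a window.

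Cytosolic ribosomal protein genes were called lower in 18 of 75 and higher in 1, with a median of -0.29. Both probes of RPS9 were lower, 6.93-fold and 7.06-fold, and RPS2 read 9727.6 in the control and 398.3 in the knockdown, 35.7-fold lower. RPS26 was at least 4.28-fold and 2.34-fold lower on its probes. These genes have many processed pseudogenes, so a probe may read copies. RPS2 changed by 4.23 in A549 and the RPS9 probes by 2.42 and 2.5. Without mirrored genes 5 of 52 were called lower and 0 higher.

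Genes of mRNA splicing were called lower in 16 of 60 symbols and higher in 1, with a median of -0.41. The bounds put the probes of HNRNPA1 2.88-fold and 6.09-fold lower or more, HNRNPH2 at least 6.56-fold and 2.15-fold, and HNRNPR 2.14-fold and 2.29-fold. SNRPA, of the U1 particle, was 6.79-fold lower, and SNRPE, a core Sm protein, was 2.25-fold and at least 2.03-fold higher. Without mirrored genes 7 of 38 were called lower and 1 higher.

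Heat shock and chaperone genes were called lower in 11 of 31 and higher in 1, with a median of -0.52. DNAJB1, a heat-inducible partner of HSP70, read 1991.6 and 202.6, or 24.5-fold lower, and STIP1, which links HSP70 to HSP90, 3755.8 and 300.6, or 20.4-fold. The 3 probes of CCT7, a subunit of the chaperonin TRiC, were 2.63-fold, 3.61-fold and at least 15.2-fold lower. HSPB1, the small chaperone HSP27, was 2.11-fold higher (6848.2 and 16315.9). In A549 the median was 0.48 with 9 members called higher and 0 lower, and DNAJB1 and STIP1 changed by 2.92 and 3.55. Without mirrored genes 1 of 14 was called higher and 1 lower.

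Of 73 respiratory chain genes 2 were called higher and 7 lower, with a median of 0.36. Both probes of the ATP synthase subunits ATP5J2 (1.59-fold and 1.72-fold), ATP5I (1.57-fold and 1.90-fold) and ATP5H (1.53-fold and 1.61-fold) were higher, and 9 of 18 genes with several probes were higher on every probe, against 1 lower. NDUFB7, of complex I, was 6.12-fold lower, with an A549 change of 1.87. The A549 changes of the ATP synthase probes lay between -0.93 and -0.42. Without mirrored genes 1 of 48 was called higher and 0 lower. Proteasome genes were called higher in 1 of 30 (3.33%) and lower in 4 (13.3%), against 15.4% and 11.5% of all genes. The share called lower was thus near that of all genes. Without mirrored genes 0 of 20 proteasome genes were called higher and 2 lower. The 3 probes of the ATPase subunit PSMC4 were at least 5.87-fold, at least 29.1-fold and at least 2.36-fold lower.

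Sterol and fatty acid synthesis genes were called lower in 9 of 32 and higher in 2, with a median of -0.48. DHCR7, which makes cholesterol from its last precursor, was 5.6-fold and 8.88-fold lower on its probes (1298.4 and 1466.4 in the control, 324.2 and 267.1 in the knockdown). SQLE, squalene epoxidase, was 1.51-fold lower on its brighter probe and 8.48-fold on the other. The regulator SREBF1 was 1.69-fold and at least 2.02-fold lower. ACSS2, an acetyl-CoA synthetase, was higher on both probes, 2.41-fold and 2.37-fold, and FDPS, of the mevalonate pathway, was 3.64-fold higher. Of 3 genes chosen after their values were seen, INSIG1, which retains the sterol sensor in the endoplasmic reticulum, had a probe 3.0-fold lower and a dim one at least 1.20-fold lower, SCD was 1.70-fold lower, and HMGCS1 changed by -0.01. The A549 median was -0.11, and without mirrored genes 4 of 23 were called lower and 0 higher.

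Targets of the antioxidant regulator NRF2 had a median of 0.47 in H1299 and 0.51 in A549. Of 28 members 4 were called higher (14.3%) and 2 lower (7.14%), against 15.4% and 11.5% of all genes. The share called higher was thus near that of all genes. FTH1, the ferritin heavy chain, was 3.31-fold higher (560.6 and 1591.4), against the decrease of its partner FTL. Its pseudogenes are close in sequence, and its probe may read them. Both probes of thioredoxin (TXN) were higher, 1.69-fold and 1.86-fold, as were those of the quinone reductase NQO1, 2.48-fold and 1.49-fold. OKL38 (now OSGIN1) was 3.60-fold higher. HMOX1, heme oxygenase, which was chosen after its values were seen, was 1.95-fold higher (478.7 and 779.6). The pentose phosphate enzyme PGD was 8.78-fold lower and changed by 2.30 in A549. Without mirrored genes 4 of 19 were called higher and 0 lower.

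In the unfolded protein and integrated stress response, 5 of 29 were called higher and 6 lower, and without mirrored genes 3 of 18 higher and 2 lower. DDIT3, the transcription factor CHOP, was 4.18-fold higher (338.4 and 952.2) and PPP1R15A, the phosphatase subunit GADD34, 2.90-fold (1426.1 and 4474.3). Both probes of XBP1 were lower, 2.58-fold and 2.78-fold, as was ATF3, 3.52-fold. In A549 DDIT3 changed by -0.45, PPP1R15A by -0.55 and the XBP1 probes by 0.98 and 0.93. Glycolysis and hypoxia genes were called higher in 4 of 32 and lower in 7, and without mirrored genes in 1 and 2 of 16. ERO1L (now ERO1A), an oxidase of the endoplasmic reticulum, was 3.49-fold higher and the kinase PFKFB4 2.95-fold, while both probes of the aldolase ALDOA were lower, at least 5.07-fold and 2.39-fold. The A549 changes were -0.66 for ERO1L, -1.22 for PFKFB4 and at least 0.07 and 1.36 on the ALDOA probes, the first being a limit set by detection.

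Secreted inflammatory factors were called higher in 8 of 27 and lower in 3, with a median of 0.15, and without mirrored genes in 6 and 1 of 20. STC1, a glycoprotein hormone, was 5.02-fold higher and the protease inhibitor SERPINE2 2.67-fold. Both probes of IGFBP3, which binds insulin-like growth factors, were lower, 2.02-fold and 1.82-fold, and the same probes changed by -1.68 and -2.0 in A549. RELB, an NF-kappaB subunit, was 5.58-fold lower. STC1, SERPINE2 and RELB changed by -1.52, -0.18 and at least 1.74 in A549. Of 33 growth factor receptor and ERK feedback genes 4 were called higher and 4 lower, among them FOSB, an AP-1 subunit, at 4.01-fold higher, the feedback inhibitor SPRY1 at 3.0-fold and 1.99-fold lower on its probes, and NRAS at 5.23-fold lower. In A549 FOSB changed by -2.19 and NRAS by 0.70, and without mirrored genes 3 of 17 were called higher and 1 lower.

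Cancer-testis genes, silenced by promoter methylation in most adult tissues and expressed in H1299, were called higher in 2 of 38 and lower in 5, with a median of -0.23. The share called lower, 13.2%, was near the 11.5% of all genes, and the share called higher was 5.26% against 15.4%. The medians of 17 members lay above 0 and those of 21 below. Of 16 members with several probes, 2 were higher on every probe, 7 lower on every probe and 7 did not share a direction. The 3 probes of MAGEA6 were lower, at least 4.13-fold, 3.23-fold and 2.35-fold, and GAGE4, at 21896.3 and 22708.1 in the control, was 1.96-fold and 1.84-fold lower. MAGEA4 was at least 25.2-fold lower on a dimmer probe and 1.79-fold lower on a probe that read 11887.4 and 7932.4. CSAG2 was 2.82-fold higher, and both detected probes of CT45A5 were higher, with changes of 1.01 and 0.79. Paralogs within the MAGEA and GAGE families are close in sequence and may share probes. Most members were not detected in A549, where 9 were, and without mirrored genes 2 of 33 were called higher and 4 lower. Most of these 33 thus had no A549 change to compare.

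HOX genes, whose clusters are rich in CG islands, were called higher in 4 of 21 and lower in 4. Both probes of HOXB6 were higher, at least 2.43-fold and 4.41-fold, and HOXB5 was 2.79-fold higher, whereas their cluster neighbours HOXB7 and HOXB8 were 3.94-fold and at least 3.41-fold lower. HOXB7 and HOXB8 changed by 2.22 and 0.98 in A549 and the HOXB6 probes by -1.11 and -1.07, and without mirrored genes 2 of 12 were called higher and 2 lower. In DNA repair and checkpoint genes, 9 of 45 were called lower and 1 higher, and without mirrored genes 4 of 33 lower and 0 higher. The kinase WEE1 was 9.04-fold lower (775.2 and 194.6) and XRCC5, the Ku80 subunit, 8.34-fold, while both probes of FANCD2, of the Fanconi anaemia pathway, were higher, 1.93-fold and 2.0-fold. Their A549 changes were 0.45 for WEE1, 1.32 for XRCC5, and -0.04 and -0.50 for FANCD2.

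The number of CG was counted in the same promoter windows. Its median was 26 in detected genes, 26 in the genes with every probe at least 2-fold higher and 27 in those lower. In the interferon and histone lists the median was 16 and 13.

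**Figure D5:**
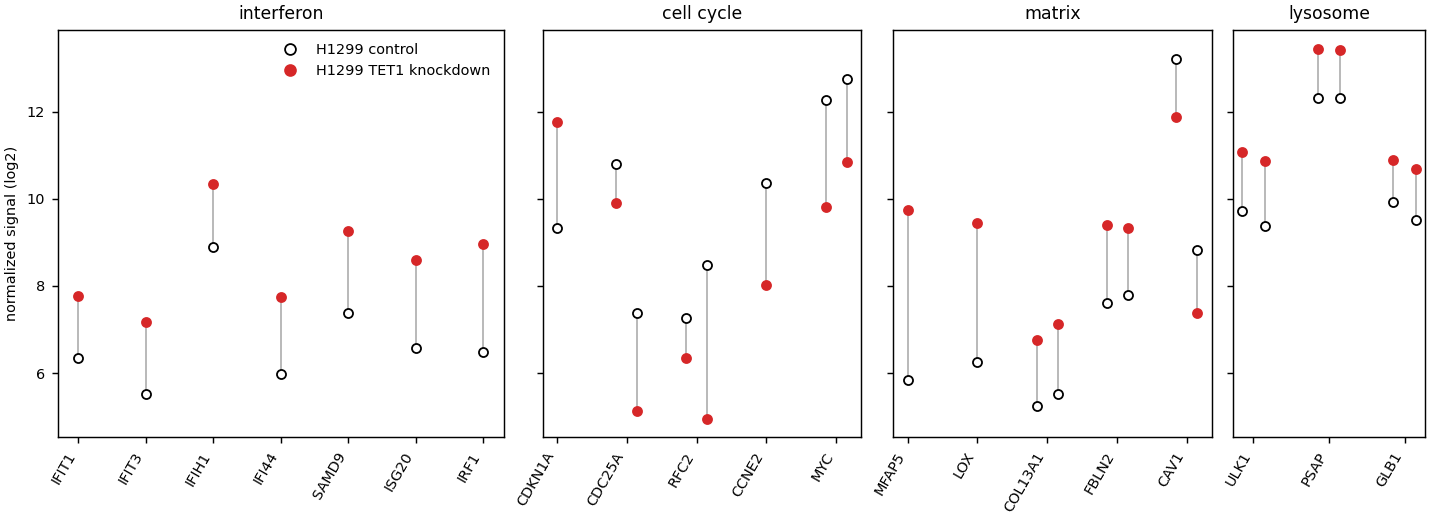
Normalized log2 signal of each detected probe of genes named in the text on the H1299 control array (open) and the H1299 knockdown array (filled), joined per probe, for interferon, cell cycle, matrix and lysosome genes. Values are as read, so those near 5 to 6 may lie below the detection limit. All probes shown of the interferon and lysosome genes are higher in the knockdown, which follows from the choice of genes. Members that were lower are not shown in these 2 panels, CTSA and BECN1 among them. In the full lists 9 of 38 interferon and 6 of 33 lysosome and autophagy members had a median change below 0.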

How the data were processed

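Expression was measured with 1 array per group in H1299 and A549 control and TET1 knockdown cells. Per the file headers, the authors deposited a mean bead signal intensity and a detection p-value for each probe, not normalized. The authors also deposited lumi output that resembles log2 values. Lumi is named in the submitters' processing notes, and the transformation behind it is not given in the sources used here. Per the labels, cRNA was made from total RNA, although the extraction text describes DNA.

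The 4 arrays went through neqc (limma 3.58.1, R 4.3.3), which takes the background from the detection p-values (normexp), adds an offset of 16, quantile normalizes and takes log2. A side with a detection p of 0.01 or more was held at the lowest normalized signal that any detected probe had on its array, or at its own if higher, which is written as at least N-fold. No fold is given where the bound was under 1. There is no test, since each group had 1 array. Genes are the file's SYMBOL. Probes that neither H1299 array detected entered no value, so a gene given with 1 value may have further probes on the array. Of 31397 symbols 17761 were current in RefSeq (GRCh38.p14), 3283 had a unique newer name and 10353 stayed as given. Probes without a symbol (3270) or with one turned into a date (54) entered no gene count. A gene under an old and a new symbol counts under each in the lists, and 1 gene can stand in several lists. Promoter windows are RefSeq's for GRCh38.p14, and 8806 of 13257 detected genes, after updating names, had one.

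Genes were named by a rule: TET1, other TET and DNMT genes; the 15 genes each way with every probe at least 2-fold changed and a direction that held with median centring and on the deposited values, ranked by the weakest probe; in each list up to 4 multi-probe members each way with a weakest probe at 0.5 log2 units and up to 2 single-probe members each way; the 6 largest single-probe changes each way; the 8 widest disagreements; and line identity genes. The members, lists and rule were chosen with earlier results of these data known. The closing section gives the alternatives. Centring on all probes and leaving out genes mirrored in A549 were added after the data were seen. The gene-level code was tested on simulated data. A few genes and 1 list are left out of this text. Plots used matplotlib 3.10.9.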

Additional observations from a re-analysis of the deposited data

Results flagged for a closer look

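In 13 of the 30 leading genes with agreeing probes, every H1299 probe was at least 2-fold changed and every A549 probe at least 2-fold changed the other way. The difference between the lines was not tested, since each group had 1 array. FBLN2 was higher in H1299, and its weakest A549 probe changed by -1.54. The other genes were lower in H1299, and the A549 change of the weakest probe was 5.95 for FTL, 2.04 for RPLP0, 2.88 for CDV3, 2.93 for MRPS27, 3.29 for LOC440589, 1.88 for NCKAP1, 1.15 for LOC643668, 2.01 for PRMT1, 1.75 for LOC728658, 1.29 for LOC645693, 2.72 for EEF1D and 1.53 for C15orf23.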

How the results depend on the processing

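On the deposited values a difference of 1 was read as 2-fold, although the transformation behind that scale is not given. The threshold may thus be unlike that of the report. The dim CD14 probe changed by 1.13 in the report and 0.15 there, and a bright VIM probe by -1.24 and -1.30. By that reading, 461 probes were at least 2-fold higher and 1077 lower (2723 and 2574 in the report), with 13 and 67 genes in which every probe passed (85 and 178). The genes called higher were then 3 of the interferon list (13 in the report), 4 histone (13), 5 matrix (15) and 5 lysosome (8), and those called lower were 6 replication (15) and 10 splicing (16). Without background correction the counts were 927 and 1601 probes, 21 and 106 agreeing genes, 6 interferon, 8 histone and 6 matrix genes higher and 8 replication genes lower. With an offset of 50, 50 agreeing genes were higher. With detection on both arrays, 1702 probes and 88 agreeing genes were lower. At 1.5-fold, 5713 probes were higher, with 238 and 312 agreeing genes, 22 interferon and 15 lysosome genes higher. At 4-fold there were 161 and 953 probes, 1 and 49 agreeing genes, 2 interferon, 4 histone, 4 matrix and 0 lysosome genes higher, and 4 replication, 2 MYC (12 in the report), 4 chaperone (11) and 5 splicing genes lower. Without the genes or probes mirrored in A549 there were 1148 and 836 probes, 42 and 47 agreeing genes, 8 interferon and 7 matrix genes higher, and 9 replication, 1 MYC, 1 chaperone and 7 splicing genes lower.

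TET1 changed by between -0.10 on the deposited values and -1.17 with median centring, and gave no value where both arrays had to detect it. With detection on both arrays, CCNE1 reversed to 0.17, CDKN2A to 0.61 and TSR1 to 1.57, since the probe undetected in the knockdown drops out. Those were 3 reversals among 2013 values of 215 named genes under the alternatives run. Few values could reverse, because most named genes were chosen for a large change. The percentage of multi-probe genes with 1 direction was 46.66 in the report. It was also 46.66 with an offset of 50, without background correction and with the H1299 arrays normalized alone. The low number of reversals is thus no measure of certainty. The 15 leading genes each way could not reverse with median centring or on the deposited values, since the rule chose them for a direction that held there. Among values other than the main counts, 72 moved in size without reversing on the deposited values and 171 stayed. Without background correction 30 moved and 213 stayed. Counts of probes, agreeing genes and the 8 lists named here stayed within 1.5 times of the report with either median centring, the H1299 arrays normalized alone, undetected sides as read, a detection p of 0.05 or updated symbols. The cause of the other shifts was not tested. No paired analysis was possible because H1299 gave 1 control and 1 knockdown array, which is a single pair, and a fit that pairs within both lines would answer a question about the lines together. Nearness to background limits the dim genes, TET1 and most interferon genes among them.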
